A study of Mus musculus with 6 samples.

Results

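Platelet-derived growth factors (PDGFs) and their receptors are encoded in the mouse by *Pdgfa*, *Pdgfb*, *Pdgfc*, *Pdgfd*, *Pdgfra* and *Pdgfrb*. All 6 genes were taken by name, as the complete set of ligand and receptor genes, from the 27506 genes in the count table. They were measured by RNA-seq in dental pulp dissected from mandibular first molars at postnatal day 3.5, when root formation begins. The strain given is C57BL/6. By its genotype label the control group was *Ror2fl/fl* (3 libraries), the floxed *Ror2* allele with no Cre named. The mutant group was *Osr2-Cre;Ror2fl/fl* (3 libraries), which carries the same floxed allele with Cre driven by *Osr2*. According to the study, this Cre acts in the dental mesenchyme and the alveolar bone and spares the dental epithelium, so epithelial *Ror2* stays intact in the mutants. The comparison asks which transcripts differ when the Wnt receptor Ror2 is missing from the dental mesenchyme. *Pdgfd* is also among the candidate genes that the study selected from these same libraries, so its change here is not independent evidence of its direction.

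PDGFs are secreted dimers that act on neighbouring cells. PDGF-A and PDGF-B are released after cleavage inside the cell, whereas PDGF-C and PDGF-D carry an extra CUB domain that must be cut off outside the cell before they can bind. PDGF-A and PDGF-C act mainly through the receptor tyrosine kinase PDGFRα, PDGF-D acts mainly through PDGFRβ, and PDGF-B binds both. In developing organs PDGF-A typically passes from epithelium to PDGFRα-bearing mesenchyme, and PDGF-B from endothelium to PDGFRβ-bearing pericytes. PDGFRα is a widely used marker of craniofacial and dental mesenchyme.

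*Pdgfd* and *Pdgfa* were the only members past the test threshold, in opposite directions. The sequence before a RefSeq start of each is shown. These regions differ in base composition, and an antisense gene begins in that of *Pdgfa*. Both come from windows around RefSeq gene starts on GRCm38.p6, written 5′ to 3′ on the strand of the gene, and capitals mark a TATA box, the letters TATAAA on either strand. The stretch of *Pdgfd* is chr9:6168236-6168485 on the plus strand, and that of *Pdgfa* is chr5:138995038-138995194 on the minus strand, up to the first annotated exon base in that window. The stretch of *Pdgfa* lies inside the span of the gene in GENCODE M21, which begins at 138997370 on that strand. It therefore does not precede the outermost annotated start.
Pdgfd: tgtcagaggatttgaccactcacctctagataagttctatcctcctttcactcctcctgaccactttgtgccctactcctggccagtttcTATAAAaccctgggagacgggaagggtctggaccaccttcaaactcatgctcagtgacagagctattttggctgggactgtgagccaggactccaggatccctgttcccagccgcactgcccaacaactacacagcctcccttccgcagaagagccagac
Pdgfa: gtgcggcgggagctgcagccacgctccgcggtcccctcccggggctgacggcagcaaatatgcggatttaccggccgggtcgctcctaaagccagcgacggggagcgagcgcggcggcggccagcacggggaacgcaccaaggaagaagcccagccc
The 250 bases of *Pdgfd* held 3 CpG dinucleotides and were 53.6% G and C, and its TATA box began at base 91 of the stretch. The 157 bases of *Pdgfa* held 20 CpG dinucleotides and were 72% G and C. In the complete windows of 300 bases, which reach 50 bases past the start, *Pdgfd* had 8 CpG dinucleotides and *Pdgfa* had 37 at this start and 24 at its other start, whereas *Pdgfc* had 8 and *Pdgfra* had 5. The median over 32851 windows was 7. A TATA box occurred in 13.6% of all windows and, among these members, in that of *Pdgfd* only. A GC box, the letters GGGCGG on either strand, occurred in 35.7% of all windows and in both of *Pdgfa*. Windows are described for 4 of the 6 members. *Pdgfrb* was left out of this description, and no window was available for *Pdgfb*. These matches describe letters and do not show that a factor binds there.

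The libraries held between 56134770 and 62628940 estimated counts. Levels were measured in CPM, the count of a gene relative to the total of its library after scaling by edgeR's TMM method. *Ror2* itself lay between 36.2 and 38.2 CPM in control and between 26.3 and 28.1 CPM in mutant libraries, without overlap. All exons were counted together, so the value does not separate the deleted region. Labels did not state that libraries came from separate animals, and p-values measure the spread between these libraries only. Sample titles hold the code WW for control library 1, OW for control libraries 2 and 3, and OR for the mutant libraries. The labels do not explain these codes. Dental mesenchyme markers and the odontoblast gene *Dspp* were present, and so were enamel genes of the dental epithelium, with *Amelx* alone at 88628 to 160441 CPM. In bulk tissue, fewer cells of a type cannot be told apart from less RNA per cell.

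Of the 6 members, 2 had a p-value under 0.05 after Benjamini-Hochberg adjustment over the 19330 genes that edgeR's quasi-likelihood test covered. These were *Pdgfd*, which was lower, and *Pdgfa*, which was higher in mutant libraries. Of all genes 20.2% passed, 10.4% higher and 9.84% lower. The groups did not overlap for 3 members, *Pdgfd*, *Pdgfa* and *Pdgfc*, against 44.7% of all genes. All 6 members passed the filter on low counts, and between 514 and 18221 counts lay behind each value. The median log2 fold change was -0.37 over the members and 0.01 over all genes tested.

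**Figure D1:**
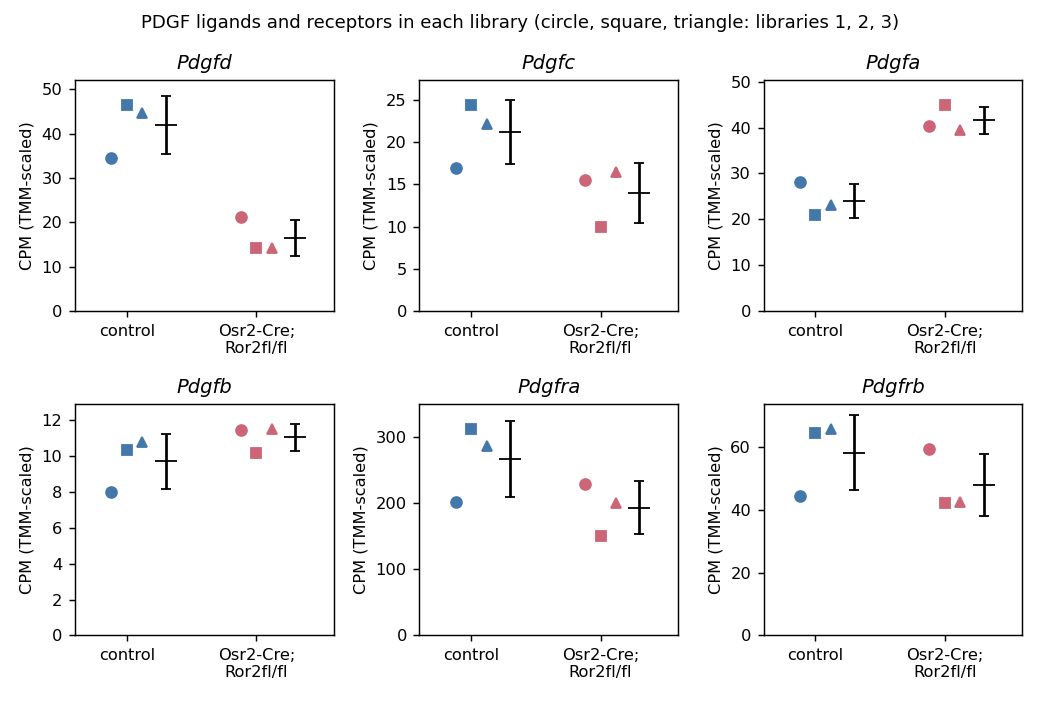
Expression of the 6 PDGF genes in each library, in CPM on a linear axis from 0, with the mean and SD of each group (n = 3) beside the points. *Pdgfd* lay at 34.4 CPM or more in control and 21.1 CPM or less in mutant libraries, *Pdgfa* at 28.1 CPM or less and 39.5 CPM or more, and both receptors overlapped between the groups.

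*Pdgfd*, which encodes the CUB-domain ligand of PDGFRβ, lies on chromosome 9 (6168584 to 6378850, plus strand, GENCODE M21 on mm10). It was expressed at 34.4, 46.6 and 44.8 CPM in control libraries 1, 2 and 3 and at 21.1, 14.1 and 14.1 CPM in mutant libraries 1, 2 and 3. Every mutant library was below every control library, and control library 1 and mutant library 1 were the closest to the other group. On the log2 scale the difference was -1.35 (standard error 0.19, 95% interval -1.78 to -0.92, edgeR adjusted p = 0.0037), or 2.55-fold lower. By its p-value *Pdgfd* ranked 426 among the 19330 genes. None of its stretches of 75 bases, as long as 1 read, occurred in another gene. *Ddi1* lies within it on the other strand, with at most 13 counts in a library. Its exons were poor in G and C (39.9% in the longest transcript), and with an offset for GC content the log2 fold change was -1.01 (edgeR adjusted p = 0.0092).

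*Pdgfc*, which encodes the CUB-domain ligand of PDGFRα, lies on chromosome 3 (81036416 to 81214040, plus strand). Control libraries had 17, 24.4 and 22.2 CPM and mutant libraries 15.6, 9.95 and 16.5 CPM. The groups did not overlap, but control library 1 and mutant library 3 lay side by side. The log2 fold change of -0.60 (standard error 0.21, 95% interval -1.08 to -0.12) missed the threshold (edgeR adjusted p = 0.076). With DESeq2's Wald test the adjusted p-value was 0.033, with limma voom and sample quality weights 0.025, and with scaling by library size alone 0.046. Without mutant library 2 the log2 fold change was -0.39.

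*Pdgfa*, which encodes the classical ligand of PDGFRα, lies on chromosome 5 (138976014 to 138997370, minus strand). It was expressed at 28.1, 21 and 23 CPM in control libraries and at 40.3, 45 and 39.5 CPM in mutant libraries. Every mutant library was above every control library. On the log2 scale the difference was 0.79 (standard error 0.13, 95% interval 0.50 to 1.08, edgeR adjusted p = 0.0065), or 1.73-fold higher, and *Pdgfa* ranked 635 by p-value. The antisense gene *6330403L08Rik* overlaps its start and shares 595 of its 3175 stretches of 75 bases, and the use of strand in counting is not stated. *6330403L08Rik* had 13.5, 17.9 and 18 CPM in control libraries and 13.2, 12.5 and 18.1 CPM in mutant libraries, so the groups overlapped. Counted together with it, *Pdgfa* had a log2 fold change of 0.47 (edgeR adjusted p = 0.0098). This sum was chosen after the values were seen.

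Markers of the dental epithelium, a tissue known to produce PDGF-A, stood beside this difference. Their sum was 172379 to 192564 CPM in control and 185753 to 256348 CPM in mutant libraries, with a median log2 fold change of 0.21. None of the 9 markers passed edgeR's threshold, 4 had an unadjusted p-value under 0.05, DESeq2 called 2, *Amelx* and *Krt14*, and limma voom called 5. The markers did not share a direction, as the enamel genes *Enam* and *Ambn* had log2 fold changes of -0.47 and -0.11 and *Amelx* one of 0.56, and *Enam* was among the 5. The epithelial keratin *Krt14* had 1178, 855 and 921 CPM in control libraries and 1264, 1298 and 1341 CPM in mutant libraries. Control library 1 was the highest control for both *Pdgfa* and *Krt14*. Among mutant libraries *Pdgfa* was highest in library 2 and *Krt14* in library 3. Control library 1 (172379 CPM) and mutant library 2 (185753 CPM), the highest of their groups in *Pdgfa*, were the lowest of their groups in the sum of the markers. The part of epithelial content in the level of *Pdgfa* was not tested.

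*Pdgfb*, which encodes the ligand of both receptors and is known from endothelium and platelets, lies on chromosome 15 (79995874 to 80014977, minus strand). It had 7.98, 10.3 and 10.8 CPM in control libraries and 11.5, 10.2 and 11.5 CPM in mutant libraries. The groups overlapped, with control library 1 the lowest. The log2 fold change of 0.19 (standard error 0.14, 95% interval -0.14 to 0.52) missed the threshold (edgeR adjusted p = 0.37), and it was 0.053 without control library 1 and -0.025 with an offset for GC content. The 10 endothelial markers summed to 231 to 295 CPM in control and 244 to 290 CPM in mutant libraries, with *Egfl7* higher and the other 9 not past the threshold. Control library 1 was the lowest of the 6 libraries in this sum as well as in *Pdgfb*, and the relation was not tested. Platelet markers were low, at 5.86 to 10.8 CPM in sum, and of 4 tested *Itga2b* was higher, *Pf4* was lower and 2 did not pass.

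*Pdgfra*, the mesenchymal receptor, lies on chromosome 5 (75152292 to 75198215, plus strand). Control libraries had 202, 313 and 287 CPM and mutant libraries 229, 150 and 201 CPM. Control library 1 lay between the mutant values, so the groups overlapped. On the log2 scale the difference was -0.47 (standard error 0.20, 95% interval -0.93 to 0.0013), which missed the threshold (edgeR adjusted p = 0.13). Over 19 alternative settings it ran from -0.64, without control library 1, to -0.30, without mutant library 2, and passed the threshold in 1, limma voom with sample quality weights (adjusted p = 0.048). Antisense and overlapping genes share 4.05% of its stretches of 75 bases, and with their counts added the log2 fold change was -0.46.

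Within each group the library with the lowest *Pdgfra* was also the lowest in *Col1a1*, the collagen gene abundant in odontoblasts. *Col1a1* was at 11084, 37133 and 26565 CPM in control libraries and 28301, 9883 and 13010 CPM in mutant libraries. The 6 odontoblast markers summed to 19896 to 59624 CPM in control and 17022 to 46496 CPM in mutant libraries, and none had even an unadjusted p-value under 0.05 by edgeR, DESeq2 or limma voom. Control library 1 and mutant library 2, the lowest libraries of their groups in this sum, were also the lowest in *Pdgfc* and the highest in *Pdgfa*. The part of this difference between libraries in the values of *Pdgfra* and the ligands was not tested.

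*Pdgfrb*, the receptor known from pericytes and other mesenchymal cells, lies on chromosome 18 (61045150 to 61085061, plus strand). It had 44.5, 64.5 and 65.9 CPM in control libraries and 59.5, 42.3 and 42.5 CPM in mutant libraries. The groups overlapped, because control library 1 lay near the lower mutants and mutant library 1 near the upper controls. The log2 fold change of -0.28 (standard error 0.19, 95% interval -0.71 to 0.15) missed the threshold (edgeR adjusted p = 0.31). It was -0.46 without mutant library 1, -0.45 without control library 1 and -0.18 without mutant library 2. The 10 markers of pericytes and smooth muscle summed to 464 to 546 CPM in control and 379 to 454 CPM in mutant libraries, without overlap. Among them *Abcc9*, a potassium channel subunit of pericytes, fell (log2 fold change -1.06, edgeR adjusted p = 0.0096), *Mcam*, an adhesion molecule, rose (0.34, adjusted p = 0.041), and 8 did not pass. The part of mural cells in the level of *Pdgfrb* was not tested.

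**Figure D2:**
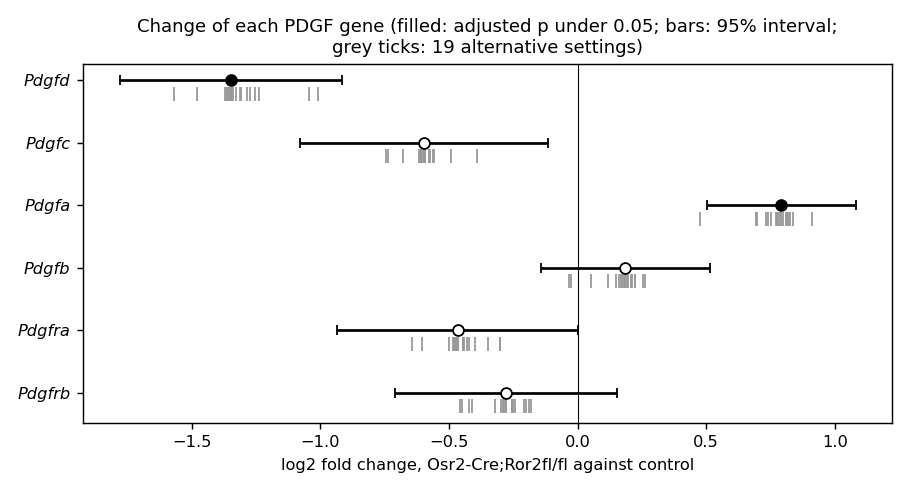
Log2 fold change of each PDGF gene between mutant and control libraries, with its 95% interval as a bar and the values under 19 alternative settings as grey ticks. The intervals of *Pdgfd* and *Pdgfa* lie on opposite sides of 0, all alternative values of these genes keep their side, and only *Pdgfb* has alternative values on both sides.

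To compare different genes with each other, CPM was divided by the length of all exons of a gene in kilobases. In control libraries the order by mean level per kilobase was *Pdgfra* at 26.6 ± 5.80 (SD, n = 3), *Pdgfd* at 13.3 ± 2.08, *Pdgfrb* at 10.6 ± 2.19, *Pdgfa* at 7.71 ± 1.18, *Pdgfc* at 4.16 ± 0.753 and *Pdgfb* at 2.33 ± 0.365. The ranges of *Pdgfd* and *Pdgfrb* overlapped, as did those of *Pdgfrb* and *Pdgfa*, whereas the other neighbours did not. With the length of the longest transcript instead, *Pdgfa* took place 3 and *Pdgfrb* place 4.

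In mutant libraries the order per kilobase was *Pdgfra* at 19.3 ± 4.0, *Pdgfa* at 13.3 ± 0.967, *Pdgfrb* at 8.78 ± 1.80, *Pdgfd* at 5.22 ± 1.28, *Pdgfc* at 2.75 ± 0.694 and *Pdgfb* at 2.66 ± 0.186. Here only *Pdgfc* and *Pdgfb* overlapped among neighbours. *Pdgfra* thus led in both groups. *Pdgfd* was the most abundant ligand per kilobase in control libraries and *Pdgfa* in mutant libraries, and among all genes tested the former lay at percentile 83.8 in control and 64.5 in mutant libraries and the latter at 73.1 and 84.

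Expressed as a share of the summed ligand level per kilobase, *Pdgfd* made up 43.4%, 51.3% and 49.7% in control and 26.3%, 19.2% and 19.3% in mutant libraries. *Pdgfa* made up 35.8%, 23.4% and 25.9% in control and 50.8%, 61.9% and 54.7% in mutant libraries. Neither share overlapped between the groups. By longest transcript, an alternative chosen after the values were seen, the shares of *Pdgfd* were 34.2% to 41.9% in control and 13.8% to 19.5% in mutant libraries and those of *Pdgfa* 28.7% to 42.4% and 56.5% to 67%, again without overlap, and *Pdgfa* exceeded *Pdgfd* in control library 1. The sum over the 4 ligands differed less, with 27.5 ± 2.01 CPM per kilobase in control and 24 ± 1.27 CPM per kilobase in mutant libraries (SD, n = 3). Here mutant library 1 lay within the control range. By longest transcript this sum was 34.4 ± 1.91 in control and 33.2 ± 1.27 in mutant libraries, and every mutant library lay within the control range.

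Ligands were also grouped by main receptor, a sum chosen after the values were seen. Each sum holds a member past the threshold, *Pdgfa* or *Pdgfd*, and is not independent of the difference in that gene. *Pdgfa* and *Pdgfc* together, which act mainly through PDGFRα, had 12.3, 11.5 and 11.7 CPM per kilobase in control and 16, 16.4 and 15.9 in mutant libraries. *Pdgfb* and *Pdgfd* together, which share PDGFRβ, had 12.8, 17.3 and 16.8 CPM per kilobase in control and 9.45, 6.92 and 7.25 in mutant libraries. The level of the first pair was above that of the second in every mutant library. In control libraries the order depended on the length used, since the first pair was below the second in each of them per kilobase of all exons, but above it in control library 1 (18.5 against 13.7) and in the mean (17.7 against 16.7) per kilobase of the longest transcript. By either length the groups did not overlap in either sum.

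**Figure D3:**
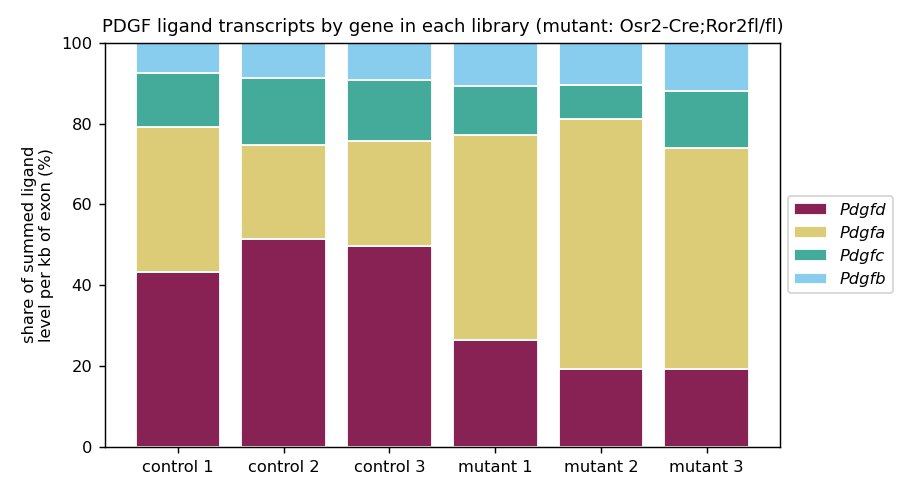
Share of each PDGF ligand gene in the summed ligand level per kilobase of exon, in percent, for each library. *Pdgfd* takes between 43.4% and 51.3% of each control bar and between 19.2% and 26.3% of each mutant bar, and *Pdgfa* between 50.8% and 61.9% of each mutant bar.

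Ratios of 2 members within a library do not depend on how the library is scaled, and 5 were compared. An exact two-sided permutation test of 3 against 3 libraries cannot give a p-value below 0.1, or 0.17 after adjustment over 5 ratios as found here, so no ratio could pass the threshold. The log2 ratio of *Pdgfd* to *Pdgfb*, the ligands of PDGFRβ, was 2.11, 2.17 and 2.05 in control and 0.88, 0.48 and 0.29 in mutant libraries, a difference of -1.56 (standard error 0.18) without overlap (exact permutation p = 0.1). The log2 ratio of *Pdgfd* to *Pdgfc*, the CUB-domain ligands, was 1.02, 0.93 and 1.01 in control libraries, and thus almost constant there, and 0.44, 0.51 and -0.22 in mutant libraries (difference -0.75, standard error 0.23, exact permutation p = 0.1).

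The log2 ratio of *Pdgfa* to *Pdgfc*, the ligands of PDGFRα, was 0.73, -0.22 and 0.06 in control and 1.37, 2.18 and 1.26 in mutant libraries (difference 1.42, standard error 0.40, exact permutation p = 0.1), without overlap. The ratio of *Pdgfa* to *Pdgfb* overlapped between the groups, since control library 1 at 1.82 exceeded mutant libraries 1 and 3 (difference 0.60, standard error 0.28, exact permutation p = 0.3). The log2 ratio of the receptors, *Pdgfra* to *Pdgfrb*, was 2.18, 2.28 and 2.12 in control and 1.94, 1.82 and 2.24 in mutant libraries, which overlapped (difference -0.19, standard error 0.13, exact permutation p = 0.3).

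**Figure D4:**
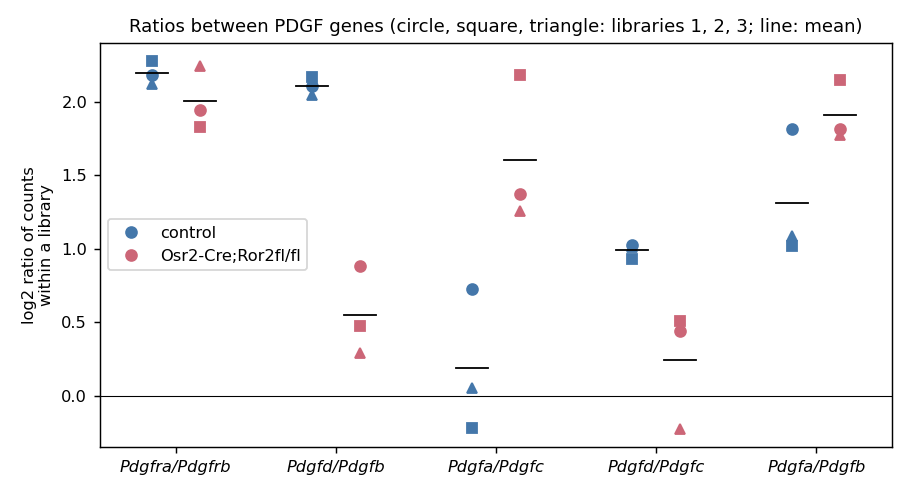
Log2 ratio of the counts of 2 PDGF genes in each library, with a line at the mean of each group (n = 3). The groups are apart for *Pdgfd*/*Pdgfb*, *Pdgfa*/*Pdgfc* and *Pdgfd*/*Pdgfc* and overlap for *Pdgfra*/*Pdgfrb* and *Pdgfa*/*Pdgfb*.

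Genes that act with the PDGFs were followed in 6 lists of 70 genes, of which 67 were tested. Of these 10 passed the threshold, 3 higher and 7 lower in mutant libraries, or 14.9% against 20.2% of all genes, and their median log2 fold change was -0.14. No gene of the lists passed when control library 2 or control library 3 was left out (edgeR), where 13 and 12 genes had an unadjusted p-value under 0.05. With all libraries 22 had such a p-value, DESeq2 called 14 and limma voom 21. Only 4 passed with an offset for GC content, *Map2k1*, *Myc* and *Yes1* among them.

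Proteases that release PDGFs from their precursors were mostly not past the threshold. Of 7 tested genes 1 passed with edgeR, *Pcsk7*, a proprotein convertase, which rose (23.1 ± 1.85 to 29.7 ± 1.96 CPM, log2 fold change 0.37, edgeR adjusted p = 0.041). Its call was lost with either offset for GC content, with scaling by library size alone and without several single libraries, and it shares 6.84% of its stretches of 75 bases with other genes. DESeq2 also called *Pcsk6*, and limma voom *Furin* and *St14*. *St14* had 65.2 ± 16.0 CPM in control and 87.4 ± 20.2 CPM in mutant libraries, which overlapped (edgeR adjusted p = 0.17). *Furin*, the main convertase for PDGF-A and PDGF-B, had 171 ± 7.70 CPM in control and 210 ± 25.1 CPM in mutant libraries (adjusted p = 0.10), and *Pcsk6* had 12.2 ± 3.03 and 7.91 ± 1.83 CPM (adjusted p = 0.081). Proteases known to cut the CUB domains were expressed. *Plat*, which encodes the tissue plasminogen activator that releases PDGF-C, had 17.2 ± 3.55 CPM in control and 12.6 ± 2.68 CPM in mutant libraries (adjusted p = 0.13). *Plau*, which encodes the urokinase that releases PDGF-D, had 7.48 ± 0.689 and 7.60 ± 1.5 CPM (adjusted p = 0.93). *Plg* was too low to be tested.

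None of the 4 co-receptors and extracellular binders passed the threshold with edgeR or DESeq2. *Lrp1* alone had an unadjusted p-value under 0.05, and limma voom called it. *Lrp1*, a scavenger receptor that associates with PDGFRβ, had 570 ± 148 CPM in control and 391 ± 81.8 CPM in mutant libraries (adjusted p = 0.12). *Nrp1*, a co-receptor, had 33.6 ± 7.16 and 26.8 ± 6.24 CPM (adjusted p = 0.27), and *Ndst1*, which sulfates the heparan chains that retain PDGF-B, had 182 ± 0.896 and 190 ± 28 CPM (adjusted p = 0.77).

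Of the 32 adaptors and effectors, all of them tested, 1 was higher, 3 were lower and 28 did not pass, with a median log2 fold change of -0.15. Of the kinases that activate ERK, *Map2k1* fell from 47.6 ± 1.84 to 31.8 ± 5.09 CPM (log2 fold change -0.58, edgeR adjusted p = 0.018) and *Map2k2* rose from 79.7 ± 4.83 to 108 ± 0.652 CPM (0.44, adjusted p = 0.015). With either offset for GC content *Map2k1* kept its call and *Map2k2* lost it. *Yes1*, a Src family kinase, fell from 50.8 ± 5.51 to 31.6 ± 5.97 CPM (-0.69, adjusted p = 0.020). It shares 7.43% of its stretches of 75 bases with other genes, so its counts are less certain.

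Among 9 negative regulators 3 fell and 6 did not pass with edgeR, with a median log2 fold change of -0.23. limma voom also called *Ptpn1*, a phosphatase gene with 50.1 ± 2.59 CPM in control and 61.1 ± 6.16 CPM in mutant libraries (edgeR adjusted p = 0.079). *Rasa1*, the RasGAP that binds PDGFRβ, fell from 79.9 ± 2.0 to 58.6 ± 9.74 CPM (log2 fold change -0.45, edgeR adjusted p = 0.043), and *Ptprj*, a receptor phosphatase, from 23.3 ± 3.88 to 15.1 ± 3.14 CPM (-0.63, adjusted p = 0.043). Neither passed with an offset for GC content, and *Ptprj* shares 8.06% of its stretches of 75 bases with other genes.

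Genes that PDGF induces quickly in cultured cells were mostly not past the threshold. Of 9 tested, *Myc* rose from 15 ± 0.656 to 21.3 ± 2.0 CPM (log2 fold change 0.50, edgeR adjusted p = 0.019) and 8 did not pass. The call of *Myc* was lost with libraries blocked by their number and with offsets for both GC content and exon length. It was also lost without control library 1, 2 or 3 or mutant library 1. *Fos* had 6.33 ± 2.98 CPM in control and 3.66 ± 1.54 CPM in mutant libraries (adjusted p = 0.16), and *Junb* had 14.6 ± 0.834 and 16.8 ± 2.03 CPM (adjusted p = 0.24). The median of the list was 0.02.

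**Figure D5:**
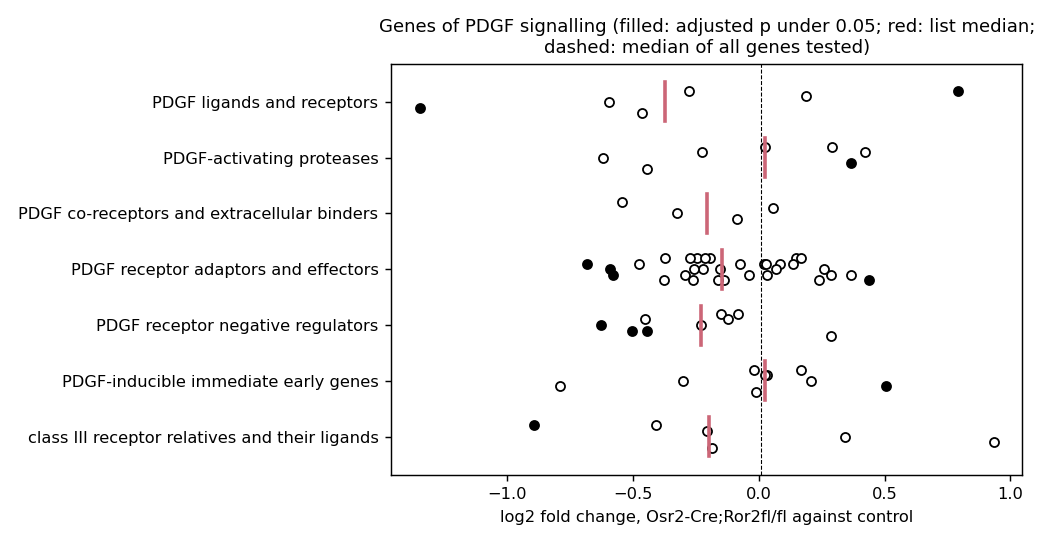
Log2 fold change of the 6 PDGF genes and of the tested genes in 6 lists of PDGF signalling, with filled points for an adjusted p-value under 0.05, the list median in red and the median of all genes tested as a dashed line. *Pdgfd* at -1.35 lies below every gene of the 6 lists, and *Pdgfa* at 0.79 lies above all of them except *Il34* at 0.93.

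The nearest relatives of the PDGF receptors are the other class III receptor tyrosine kinases, Kit, Csf1r and Flt3. *Kitl*, which encodes the ligand of Kit, had 42.5, 65.4 and 63.9 CPM in control libraries and 32.7, 19.4 and 40.3 CPM in mutant libraries. The groups did not overlap, and the log2 difference was -0.89 (standard error 0.27, edgeR adjusted p = 0.048). The call was lost with no filter on low counts, with either offset for GC content, and without control library 2, control library 3, mutant library 1 or mutant library 2. Its receptor *Kit* had 104 ± 14.7 CPM in control and 91.2 ± 9.70 CPM in mutant libraries (adjusted p = 0.33).

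*Csf1r*, the receptor of macrophages and osteoclast precursors, had 43.7 ± 5.83 and 37.9 ± 5.35 CPM (edgeR adjusted p = 0.31), and its ligand *Csf1* had 23.3 ± 3.39 and 17.6 ± 3.04 CPM (adjusted p = 0.097). The second ligand of Csf1r, *Il34*, had 0.262 ± 0.0663 CPM in control and 0.502 ± 0.140 CPM in mutant libraries (adjusted p = 0.099), and *Flt3l* had 1.15 ± 0.0730 and 1.46 ± 0.974 CPM (adjusted p = 0.58). *Flt3* was too low to be tested.

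Markers of neighbouring tissue differed between the groups beside these results. All 7 tested skeletal muscle genes were lower in mutant libraries, with a summed level of 10.9 to 37.4 CPM in control and 2.89 to 3.90 CPM in mutant libraries. limma voom called 2 of them. The sum is not divided by gene length and does not measure how much *Pdgfd* muscle cells express. Erythroid genes summed to 782 to 1320 CPM in control and 244 to 933 CPM in mutant libraries, with *Hba-a1* and *Alas2* lower and 4 not past the threshold. The part of muscle, blood and other adjacent cells in the values of *Pdgfd* was not tested. Of the 10 dental mesenchyme markers, *Dlx2* and *Msx2* were higher, *Prrx1* was lower and 7 did not pass. Macrophage markers summed to 135 to 165 CPM in control and 112 to 192 CPM in mutant libraries, with 2 of 8 lower by edgeR. *C1qb* missed its threshold with a log2 fold change of 0.62 (edgeR adjusted p = 0.072) but was called by DESeq2 and limma voom. Schwann cell markers summed to 26 to 35.3 CPM in control and 31.7 to 38.5 CPM in mutant libraries, with 1 of 6 higher and 5 not past the threshold.

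The genes whose log2 CPM followed each member most closely over the 6 libraries were sought among 11619 genes with a mean of at least 5 CPM. With so few libraries in 2 groups, many genes follow any member that separates the groups, and the correlations are given as a description. *Pdgfd* was followed most closely by *Tmem254c* (Pearson's r = 0.999) and *Marcks* (0.998), *Pdgfa* by *Zfp358* and *Psmd7* (both 0.999), *Pdgfc* by *Ube2j1* and *Rin2* (both 0.999), *Pdgfra* by *Sept6* and *Rasal2* (both 0.999), *Pdgfrb* by *Ctnnd2* (0.991) and *Btbd3* (0.990), and *Pdgfb* by *Plekhf1* (0.991) and *Sh2d4a* (0.978). An r above 0.9 was reached by 955 genes for *Pdgfd*, 1407 for *Pdgfa*, 1709 for *Pdgfc*, 889 for *Pdgfra*, 230 for *Pdgfrb* and 38 for *Pdgfb*. Of the followers of *Pdgfd*, *Marcks*, a protein kinase C substrate, had 444 CPM in control and 214 CPM in mutant libraries, and *Tmem254c* belongs to a cluster of near-identical genes, so its counts are uncertain.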

How the data were processed

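RNA-seq was analyzed from 3 control and 3 mutant libraries. The authors deposited estimated counts per gene, not normalized, of which 47.8% were whole numbers, zeros included. They also deposited a normalized signal, the estimated count plus 1, multiplied by a factor for each library (to within 0.001%), not divided by gene length. The methods name TopHat 2, and the submitters' processing notes name STAR 2.6.1d and Partek, both with mm10. The counting rule, strand use and annotation are not given in the sources used here. The count table holds 6 columns of other samples, which were not used.

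Estimated counts were rounded, scaled with TMM, filtered with filterByExpr and tested with edgeR 4.0.16 (R 4.3.3) by its quasi-likelihood test without a block, as the statistics section names an unpaired comparison. limma 3.58.1 and DESeq2 1.42.0 served as alternatives. The test was tested on simulated data. The standard error is the log2 fold change divided by the square root of the F statistic. No 2 libraries of a group were copies (chi-square per gene at least 61.1).

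The members and all lists were chosen with earlier results of these data known. Named genes are the members, their class III relatives, the leading 3 by p-value of every other pathway list, *Ror2*, the 2 closest followers of each member, and up to 2 abundant genes per marker list. *6330403L08Rik*, *Ddi1*, *Yes1*, *Dspp*, *Plat*, *Plau*, *Plg*, *St14*, *Ptpn1*, *Krt14*, *Enam*, *C1qb* and the called markers were named after their values were seen. Some genes that the rule would name are not reported here.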

Additional observations from a re-analysis of the deposited data

How the results depend on the processing

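*Pdgfd* and *Pdgfa* kept their direction and an adjusted p-value under 0.05 in all 19 alternatives, with log2 fold changes from -1.57 to -1.01 and from 0.47 to 0.91. *Pdgfrb* was not called in any, *Pdgfc* in 3 and *Pdgfra* in 1. *Pdgfb* was -0.025 with an offset for GC content and -0.034 with offsets for GC content and exon length. The number of members called was 4 with limma voom, 3 with DESeq2 and with scaling by library size alone, and 2 in the others, the 6 that left out a library included. *Ror2* lost the threshold in 3 alternatives, the replicate block and the fits without control library 2 or 3 (edgeR adjusted p up to 0.075).

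Genes called in the whole table numbered 3906 (2003 higher and 1903 lower), 6341 with limma voom (3167 and 3174) and 872 to 5001 with a library left out (458 to 2520 higher, 414 to 2481 lower), lowest without control library 3 (872), control library 2 (910) and mutant library 1 (2404). With the GC offset 1226 were lower. The share of higher genes among those called ranged from 44.3% to 57% over these settings.

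The pathway lists held 10 called genes (3 higher and 7 lower), whereas limma voom called 21 (9 and 12), the GC offset 4 (1 and 3), offsets for GC content and length 3 (0 and 3), and fits without a library 0 to 13 (0 to 5 higher, 0 to 8 lower), with 0 without control library 2 or 3 and 5 without mutant library 1. DESeq2 called 11 lower. The sample index is shared by both groups, but same-numbered libraries did not deviate together (correlations -0.10, -0.080 and -0.0038). A pairing by number was thus not seen, but these values cannot exclude it. The labels do not state whether both groups were prepared together, and a difference in preparation could not be told apart from genotype. With this replicate block 2013 genes were called (1012 higher, 1001 lower), 2 members and 3 pathway genes (0 higher, 3 lower), and no call of a member changed.

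Leaving out a library moved the log2 ratios from -1.72 to -1.43 for *Pdgfd*/*Pdgfb*, from 1.13 to 1.69 for *Pdgfa*/*Pdgfc*, from -0.88 to -0.52 for *Pdgfd*/*Pdgfc*, from -0.31 to -0.099 for *Pdgfra*/*Pdgfrb* and from 0.46 to 0.86 for *Pdgfa*/*Pdgfb*. By longest transcript *Pdgfa* took place 3 and *Pdgfrb* place 4 in control libraries. The causes were not tested.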
